A study of Cavia porcellus with 34 samples.

Results

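The cytosolic ribosomal protein genes encode the proteins of the small (RPS) and large (RPL) ribosomal subunits. They were followed in the paraventricular nucleus (PVN) of juvenile female guinea pigs across 3 generations. A row was taken as a member where its symbol was RPL or RPS followed by digits, with at most a closing letter and digit, or was RPLP0, RPLP1, RPLP2 or RPSA, and RPS6 kinase genes were left out. Of 12592 genes with a row in any of the 3 tables, 54 were members. There were 52 of 12114 rows in F1, 54 of 12207 in F2 and 52 of 12068 in F3, and 51 members had a row in all 3. RPL37 had no row in F1, RPL10L had none in F3, and RPS27L had one in F2 alone. Every member passed the filter on low values in each table that held it. The RefSeq gene list of the guinea pig named 82 genes under the same rule, and the 28 without a row, among them RPLP1, RPLP2, RPSA, RPS6 and RPL10, were not analysed here.

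The ribosome makes every protein of the cell. Its small subunit reads the mRNA, its large subunit forms the peptide bonds, and the acidic stalk on the large subunit recruits elongation factors. The subunits are built in the nucleolus from ribosomal RNA and 1 copy of most of these proteins, so their genes are known for being expressed together. Their mRNAs start with a terminal oligopyrimidine (TOP) tract, through which mTORC1 controls their translation. In the hypothalamus, the neurons that make vasopressin, oxytocin and CRH are known for a heavy load of protein synthesis.

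Pregnant F0 Dunkin-Hartley guinea pigs had received courses of the synthetic glucocorticoid betamethasone (sGC) or vehicle (Veh). F1 animals were exposed in utero, and F2 and F3 animals descended from them through males mated with untreated females. The PVN was punched from frozen brains of females on postnatal day 40, and poly(A) RNA was sequenced in 5 Veh and 5 sGC animals of F1, 5 and 5 of F2, and 6 and 6 of F3. Of the F3 animals, 2 sGC animals (SGM_21 and SGM_22) came from a second sequencing batch, and all 6 Veh animals and the other 4 sGC animals came from the first. Animals are named by the numbers in their labels, which do not pair Veh with sGC.

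The deposited values are normalized counts, and their sum per animal was 15.57 to 21.94 M (mega) in F1, 15.65 to 19.44 M in F2 and 18.69 to 18.98 M in F3. The members took 0.879% to 1.16% of the sum in F1, 0.862% to 1.16% in F2 and 1.18% to 1.45% in F3. Each value was divided by a size factor of its animal (median of ratios within the table) and is called a scaled value here. Scaled values are not per length, so levels are compared between animals for 1 gene and not between genes. The tables were normalized separately, so only differences within a table are compared across generations. Markers of the labelled tissue were present. All 8 PVN neuroendocrine markers, among them AVP, OXT and CRH, had a row in every table, and none was at 0 in all animals of a table. Their levels differed between animals, with AVP in F1 at scaled values from 10053 in SGM4 to 111280 in SGM15.

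In F1, the ribosomal protein genes were lower in sGC than in Veh in all but 1 member. Of 52 members, 51 had a log2 change, the log2 ratio of sGC over Veh, below 0, against 49.3% of the 11874 genes tested. The median log2 change of the members was -0.19, against 0.00 (0.0033) over all genes. In limma with Benjamini-Hochberg adjustment over all genes, 25 members (48.1%) fell with an adjusted p under 0.05, where 8.86% of all genes fell. No member rose in limma, where 8.47% of all genes did. The unadjusted p was under 0.05 in 44 members (84.6%), all of them lower in sGC, and in 3912 of the 11874 genes. Most members have high values, and calls were more frequent among highly counted genes. Of the 4603 genes with the highest means, 654 fell, 527 rose and 1979 had an unadjusted p under 0.05. In 12 members (23.1%) the 5 sGC animals all lay below the 5 Veh animals, against 7.16% of all genes. Small-subunit genes had a median of -0.21, with 10 of 17 called lower, and large-subunit genes one of -0.17, with 14 of 34. The members vary together from animal to animal, so these counts are not independent of each other. Scaled values are relative to the other genes of the same punch. A different mix of cells and less of these mRNAs within cells cannot be told apart in bulk tissue.

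The level over all members was first taken for each animal, as the mean over the 52 genes of the log2 scaled value minus the mean of the Veh animals. In F1 Veh it was -0.14 in SGM15, 0.0007 in SGM3, 0.0035 in SGM11, 0.04 in SGM19 and 0.10 in SGM7. In F1 sGC it was -0.31 in SGM20, -0.19 in SGM4, -0.17 in SGM12, and -0.13 in both SGM16 and SGM8. All 5 sGC animals lay below 4 of the 5 Veh animals, and the Veh animal SGM15 lay inside the range of the sGC group. In SGM15, 50 of the 52 members were below the Veh mean, and in SGM20 51 were. The group means differed by -0.19, with a spread between animals of 0.09 (SD, n = 5) in Veh and 0.07 (SD, n = 5) in sGC.

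**Figure D1:**
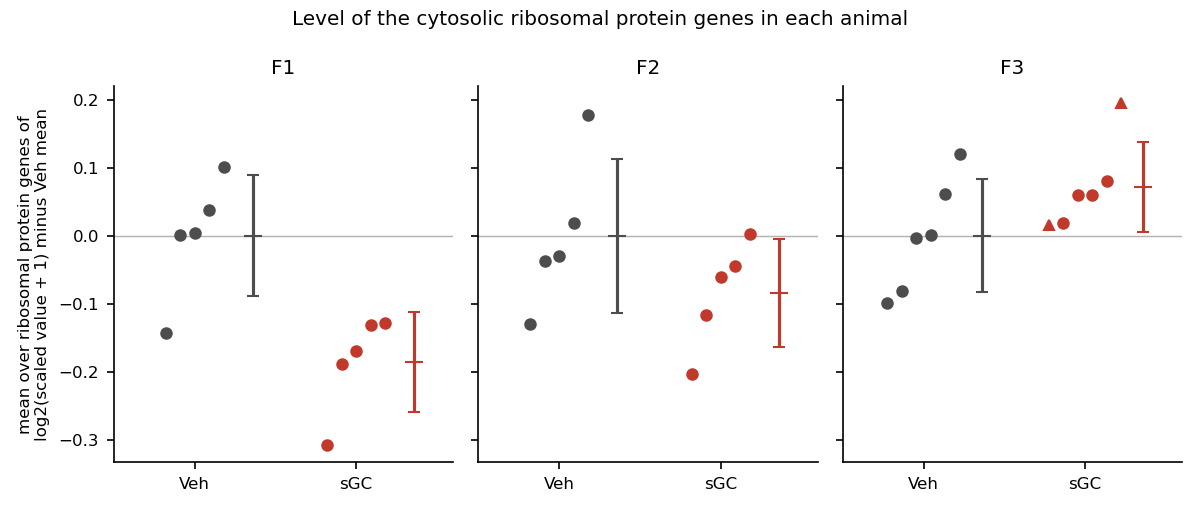
Level of the ribosomal protein genes in each animal, by generation and group. The y axis is the mean over the members of log2(scaled value + 1) minus the Veh mean of the same table, each point is 1 animal (triangles, second F3 batch), and the bars give mean ± SD. The sGC animals lie low in F1, from -0.31 to -0.13, overlap with Veh in F2, and lie between 0.02 and 0.20 in F3.

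RPS24, a small-subunit protein needed to process the precursor of 18S rRNA, had the most negative fold change of the members in F1. Its scaled values in Veh were 5108 (SGM15), 5157 (SGM19), 5193 (SGM3), 5443 (SGM11) and 6603 (SGM7), and in sGC 3679 (SGM20), 4043 (SGM4), 4120 (SGM8), 4454 (SGM16) and 4515 (SGM12). The groups did not overlap, and SGM7 stood above the other Veh animals. The mean fell from 5501 ± 630 (SD, n = 5) to 4162 ± 339 (SD, n = 5), a log2 change of -0.40 ± 0.08 (SE, limma, adjusted p = 0.00837).

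RPL22L1, the paralogue of the large-subunit protein RPL22, was 2565 (SGM15), 2898 (SGM3), 3051 (SGM11), 3249 (SGM7) and 3358 (SGM19) in Veh. In sGC it was 2306 (SGM8), 2351 (SGM12), 2406 (SGM20), 2503 (SGM16) and 2516 (SGM4), all below the lowest Veh animal. Its log2 change was -0.32 ± 0.07 (SE, limma, adjusted p = 0.0108). RPL22 itself lay at 1081 to 1225 in Veh and 910 to 1081 in sGC, and its log2 change of -0.19 did not pass (limma, adjusted p = 0.054).

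RPS27A, which is made as a fusion with ubiquitin, was 4027 (SGM15), 4430 (SGM3), 4600 (SGM11), 4914 (SGM19) and 4948 (SGM7) in Veh. Its sGC animals lay close together, from 3582 in SGM20 to 3865 in SGM8, below every Veh animal. The log2 change was -0.28 ± 0.06 (SE, limma, adjusted p = 0.00908). RPL27, a large-subunit protein, also separated the groups, at 1558 to 1709 in Veh and 1272 to 1481 in sGC, with a log2 change of -0.25 (limma, adjusted p = 0.00614).

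RPS4X, the X-linked copy of the small-subunit protein S4, had the smallest p-value of the members. Its scaled values were 1909 (SGM15), 1979 (SGM3), 2019 (SGM11), 2066 (SGM19) and 2129 (SGM7) in Veh and 1650 (SGM20), 1706 (SGM4), 1708 (SGM16), 1711 (SGM12) and 1782 (SGM8) in sGC. The groups did not overlap. The mean fell from 2020 ± 83.8 (SD, n = 5) to 1711 ± 47.2 (SD, n = 5), a log2 change of -0.24 ± 0.04 (SE, limma, adjusted p = 0.00337).

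In RPS20, RPL7 and RPLP0 the lowest Veh animal fell among the sGC animals. RPS20, of the small-subunit head, ranged from 3715 to 4800 in Veh and from 3097 to 3971 in sGC, with a log2 change of -0.27 (limma, adjusted p = 0.0376). RPL7, of the large subunit, ranged from 6400 to 8377 in Veh and from 5931 to 6455 in sGC, with a log2 change of -0.27 (limma, adjusted p = 0.0174). RPLP0, the base of the acidic stalk, ranged from 8576 to 10758 in Veh and from 7630 to 8838 in sGC, with a log2 change of -0.23 (limma, adjusted p = 0.0302). In all 3 genes the low Veh animal was SGM15.

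RPL11 and RPL5 form, with 5S rRNA, the particle that binds MDM2 and so ties ribosome assembly to p53. RPL11 ranged from 3481 to 4273 in Veh and from 3057 to 3543 in sGC, and it fell with a log2 change of -0.24 (limma, adjusted p = 0.0189). The RPL5 row held very low values, 19.2 to 33.0 in Veh and 14.4 to 26.2 in sGC, and its log2 change was -0.27 ± 0.22 (SE, limma, adjusted p = 0.422). Ribosomal protein genes have many near-identical pseudogenes, so the share of reads that the authors' counting gave to each gene, RPL5 included, is uncertain.

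Not every highly counted member passed. RPL3 and RPL4, proteins of the core of the large subunit, ranged from 10892 to 12500 and from 8803 to 10448 in Veh, and from 9916 to 12157 and from 8626 to 9417 in sGC. Their log2 changes were -0.08 (limma, adjusted p = 0.415) and -0.07 (limma, adjusted p = 0.335). RPL13 had one of -0.14 (limma, adjusted p = 0.0838), and RPL13A, known also as a translational silencer in inflammation, one of -0.12 (limma, adjusted p = 0.296). RPL8 fell, with -0.21 (limma, adjusted p = 0.0386), and RPL7A, with -0.16, did not pass (limma, adjusted p = 0.0917). The paralogues with low values, RPL3L, RPL26L1 and RPL10L, had log2 changes of -0.18, -0.07 and 0.09, none of which passed. RPL10L, known from the testis, was the 1 member with a value above 0, at 30.2 to 50.8 in Veh and 30.7 to 51.5 in sGC.

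**Figure D2:**
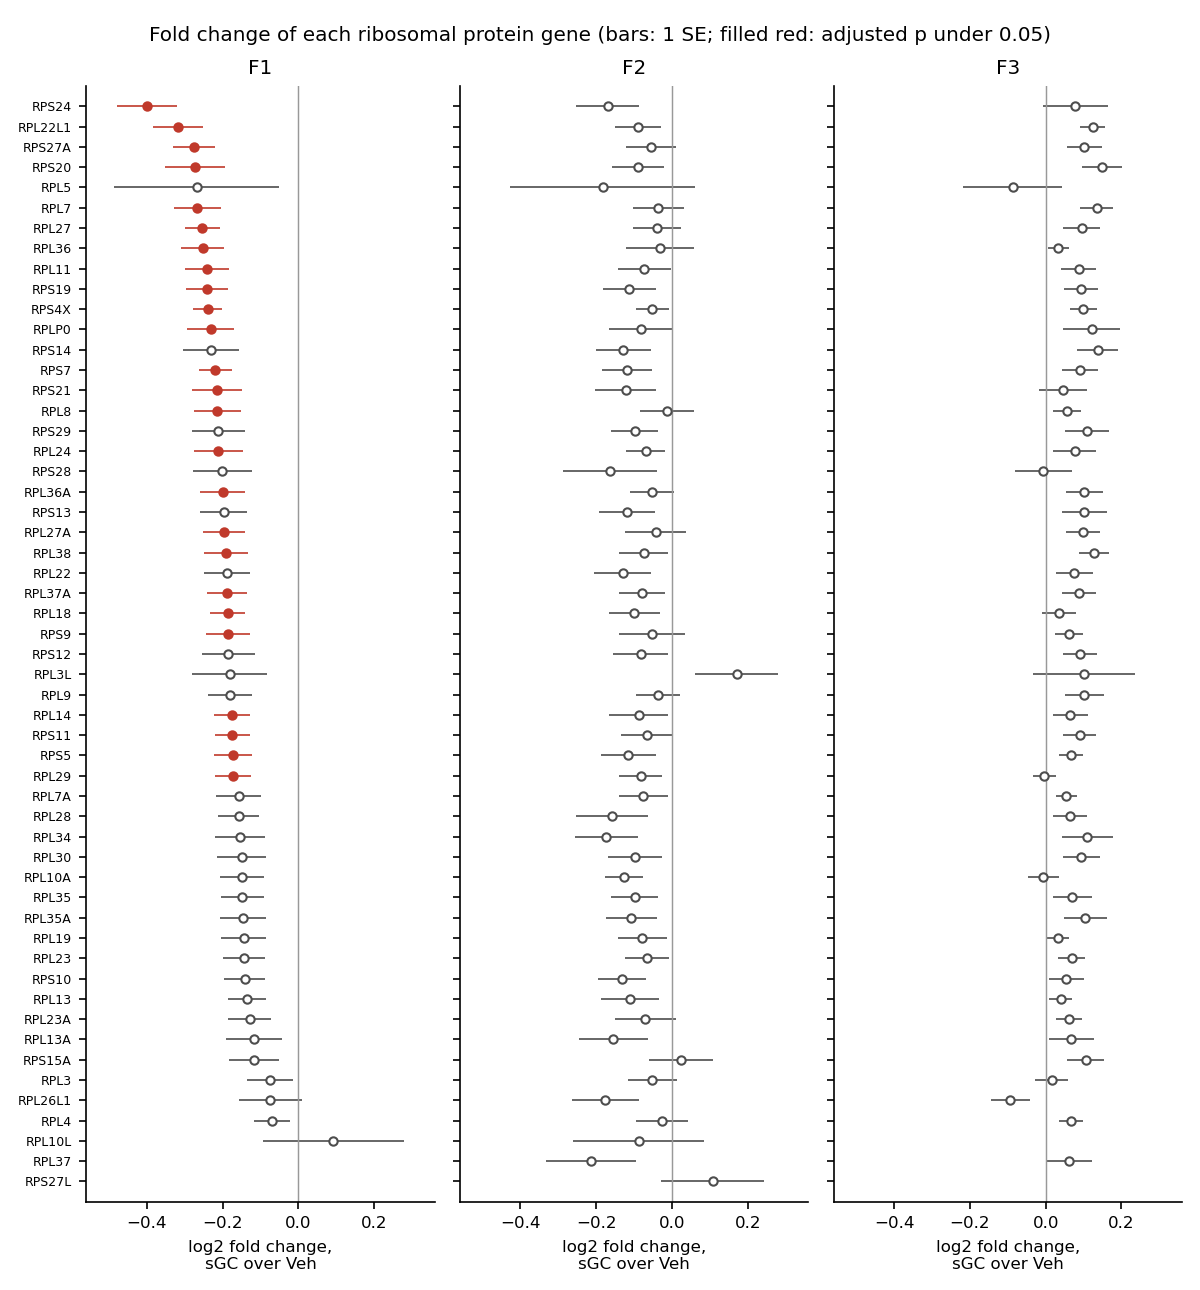
Log2 fold change of sGC over Veh for each ribosomal protein gene (rows, ordered by F1) in F1, F2 and F3. Points are limma estimates, bars are 1 standard error, and filled red points have an adjusted p under 0.05. In F1, 51 of 52 points lie left of 0 and 25 are filled, in F2 51 of 54 lie left and none is filled, and in F3 47 of 52 lie right and none is filled.

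The F1 calls depended on the scaling and on single animals. On the deposited scale, without size factors, the members had a median of -0.12 against 0.07 over all genes and 51 of 52 were again lower, but 0 passed in limma, with 1 at an unadjusted p under 0.05; only 78 genes of all passed there. With sample totals in place of size factors 24 members fell, and with quantile normalization 27. The residual normalization of the authors had removed 1 direction of variation from the F1 values, and with that direction as a covariate 12 members fell. Without SGM11 9 members passed, without SGM15 37 did, and without SGM3, SGM7, SGM19 or SGM20 11 or 12 did, as did 15 without SGM4. Of the 25, 9 passed whichever animal was left out: RPS24, RPL22L1, RPS27A, RPL27, RPS4X, RPL7 and, named after their values were seen, RPL36, RPS19 and RPS7. RPS7, a small-subunit protein that binds MDM2, was 5809 to 6490 in Veh and 4847 to 5496 in sGC, without overlap, with a log2 change of -0.22 (limma, adjusted p = 0.00872).

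The punches of F1 also differed in PVN markers. Of the 8 PVN neuroendocrine markers, all 8 were lower in sGC, with a median log2 change of -0.88. The unadjusted p was under 0.05 in 7 of them, and after adjustment only TRH passed (log2 change -1.003, limma, adjusted p = 0.0398). Their summed scaled value was 117048 to 231822 in Veh. It was 26667 in SGM4, 35296 in SGM8 and 56256 in SGM20, against 147951 in SGM12 and 185506 in SGM16, so 3 of the 5 sGC animals lay below every other animal. The oligodendrocyte markers (9 of 10 with a row) were all higher in sGC, with sums of 34869 to 62303 in Veh and 38757 to 105249 in sGC, and so were all 8 endothelial markers, with 7262 to 8053 and 7316 to 13767. No oligodendrocyte or endothelial marker passed after adjustment. At an unadjusted p under 0.05 there were 0 oligodendrocyte and 5 endothelial markers. No marker of the 3 lists was at 0 in all animals. Of 8 neuronal markers 4 were lower and 4 higher, and 1 passed, STMN2, with a log2 change of -0.21 (limma, adjusted p = 0.0197). CX3CR1, of microglia, and DNAH11, of ependymal cells, rose by 0.25 and 0.43 on the log2 scale (limma, adjusted p = 0.0496 and 0.0318). Their lists were mixed in direction, and no other marker of either list passed. Of 7 microglial markers 4 were higher and 3 lower, and of 7 ependymal markers 3 were higher and 4 lower. The part of these markers in the result was not tested.

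The 2 sGC animals with PVN markers in the Veh range, SGM12 and SGM16, had ribosomal protein levels of -0.17 and -0.13. These lay between those of SGM4, at -0.19, and SGM8, at -0.13. SGM20, also low in PVN markers, had the lowest level of the F1 animals, at -0.31. SGM16 also lay just above the Veh animal SGM15. Without SGM4, SGM8 and SGM20, an alternative chosen after seeing the data, the median of the members was -0.16 against -0.00 (-0.0041) over all genes, with 51 of 52 again lower, while that of the PVN markers went to -0.10. With 2 sGC animals left, 3 members (5.77%) were called lower in limma (RPL27, RPS4X and RPS7), against 386 of 11847 genes (3.26%), and 20 had an unadjusted p under 0.05. With so few animals left, the part of the PVN markers in the F1 result was not tested.

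**Figure D3:**
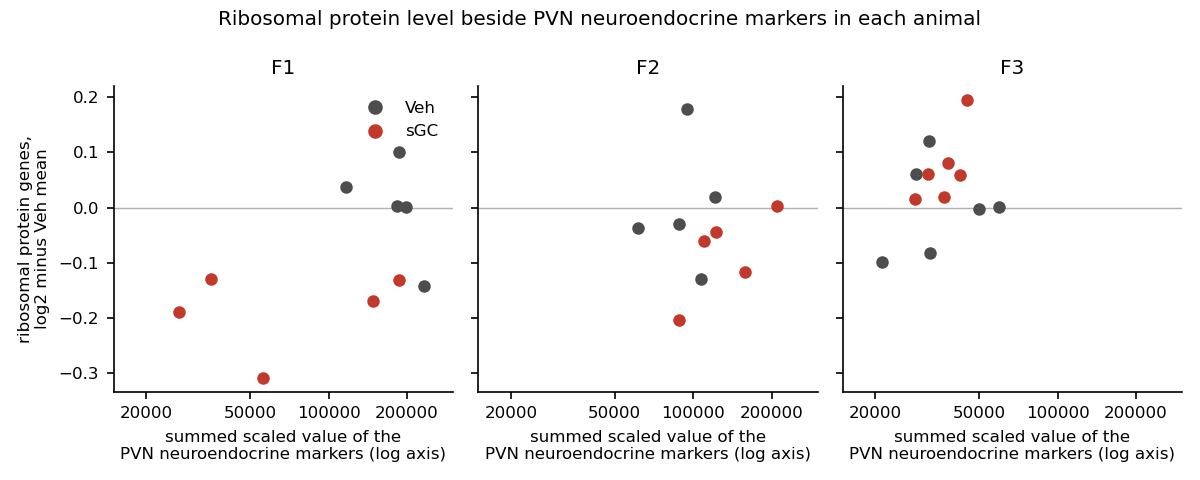
Level of the ribosomal protein genes (y axis, log2 difference from the Veh mean) against the summed scaled value of 8 PVN neuroendocrine markers (x axis, log scale) in each animal. Each point is 1 animal. In F1, SGM4, SGM8 and SGM20 lie far left at 26667 to 56256, with ribosomal protein levels of -0.19, -0.13 and -0.31. The other 2 sGC animals, at 147951 and 185506, have ribosomal protein levels of -0.17 and -0.13.

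Many genes of other lists of protein synthesis and energy metabolism fell in F1 as well. Of 67 mitochondrial ribosomal protein genes, which make up the separate ribosome of mitochondria, 26 fell and 2 rose, with a median of -0.15. MRPS18C had a log2 change of -0.42 (limma, adjusted p = 0.00505). Of 64 respiratory chain genes 32 fell and 0 rose, with a median of -0.20, and ATP5H, of the ATP synthase, had a log2 change of -0.34 (limma, adjusted p = 0.0019). Of 27 proteasome genes 14 fell and 0 rose, with a median of -0.17. Without SGM4, SGM8 and SGM20 the genes called lower were 8 of the mitochondrial ribosome (11.9%), 17 of the respiratory chain (26.6%) and 5 of the proteasome (18.5%). In that fit 5.77% of the cytosolic ribosomal protein genes and 3.26% of all genes were called lower. On the deposited scale 0 genes of the 3 lists passed in limma, with 1, 1 and 0 at an unadjusted p under 0.05.

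The other parts of the translation machinery are read against the 8.86% of all genes that fell, and no difference between the lists was tested. Of 26 initiation factors 9 fell and 1 rose, with a median of -0.11. EIF4A2, a helicase that unwinds mRNA for the ribosome, had a log2 change of -0.30 (limma, adjusted p = 0.00493), and EIF4G3, a scaffold of the cap-binding complex, rose by 0.23 on the log2 scale (limma, adjusted p = 0.00527). Of 12 genes listed with the elongation and termination factors 1 fell, MCTS1, which is not itself a factor of either step, with a median of -0.08 for the list. Of 11 other TOP mRNAs 1 fell, GNB2L1 (RACK1, a small-subunit protein that the symbol rule does not take), from a mean of 4896 to one of 4326, a log2 change of -0.18 (limma, adjusted p = 0.0357). TPT1, an abundant TOP mRNA, had a log2 change of -0.21 that did not pass (limma, adjusted p = 0.052). Of 15 translocon and signal recognition genes, which carry nascent chains to the endoplasmic reticulum, 5 fell, among them SRP14 with -0.28 (limma, adjusted p = 0.00803) and SRP9 with -0.22 (limma, adjusted p = 0.00992).

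Calls among the genes that build and regulate ribosomes went in both directions. Of 58 ribosome biogenesis genes 6 fell and 0 rose, with a median of -0.04, against 8.86% of all genes that fell. NHP2, of the snoRNPs that modify rRNA, had a log2 change of -0.23 (limma, adjusted p = 0.00374), and SBDS, which readies the large subunit, one of -0.19 (limma, adjusted p = 0.00921). Of 11 genes of RNA polymerase I, which transcribes rRNA, 0 fell and 2 rose. These were POLR1A, the large catalytic subunit, with 0.26 (limma, adjusted p = 0.0153), and POLR1E, with 0.16 (limma, adjusted p = 0.0443). Of 24 genes of mTORC1 and translation control 5 fell and 5 rose. RHEB, the direct activator of mTORC1, fell by 0.25 on the log2 scale (limma, adjusted p = 0.00177), and EIF4EBP2, a repressor of cap-dependent translation, rose by 0.22 (limma, adjusted p = 0.00971). Of 6 genes of p53 and ribosomal stress 0 passed, and 2, MDM2 and BAX, had an unadjusted p under 0.05, with -0.24 and -0.14.

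**Figure D4:**
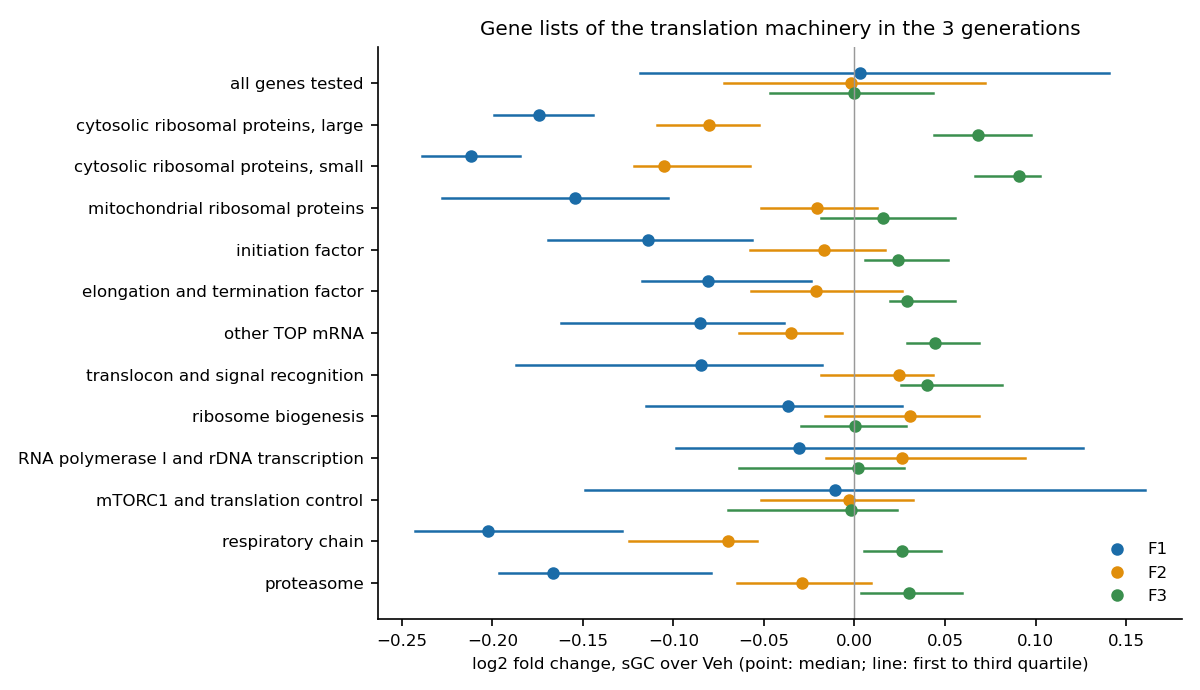
Log2 fold change of sGC over Veh (x axis) for gene lists of the translation machinery and of energy metabolism (rows) in F1, F2 and F3. Points are medians over the genes of a list and lines run from the first to the third quartile. The F1 medians were -0.17 for the large and -0.21 for the small ribosomal subunit, those of F2 -0.08 and -0.11, and those of F3 0.07 and 0.09.

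In F2, most members were again lower in sGC, by a smaller amount and without any call. Of 54 members 51 had a log2 change below 0, against 50.8% of the 11965 genes tested, with a median of -0.09, against -0.00 (-0.002) over all genes. No member fell or rose with an adjusted p under 0.05 in limma, and neither did any other gene (0% in either direction). At an unadjusted p under 0.05 there was 1 member (1.85%), against 12.8% of all genes. In no member did the sGC animals all lie below the Veh animals, which was so for 1.91% of all genes. That unadjusted count was 12 on the deposited scale, 8 without SGM28, and 0 to 5 with any other 1 animal left out.

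The F2 animals overlapped in the level over all members. In Veh it was -0.13 in SGM28, -0.04 in SGM29, -0.03 in SGM27, 0.02 in SGM23 and 0.18 in SGM22. In sGC it was -0.20 in SGM21, -0.12 in SGM25, -0.06 in SGM26, -0.04 in SGM30 and 0.0032 in SGM24. SGM22 was the highest and SGM21 the lowest of the 10 animals, and the group means differed by -0.08, with an SD of 0.11 in Veh (n = 5) and 0.08 in sGC (n = 5). Without SGM22 the median over the members was -0.04.

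The 3 smallest p-values of the members in F2 were those of RPL10A, RPL34 and RPS10. RPL10A, which forms the mobile L1 stalk of the large subunit, was 4053 (SGM28), 4315 (SGM27), 4413 (SGM29), 4548 (SGM23) and 4822 (SGM22) in Veh and 3883 (SGM21), 4027 (SGM26), 4033 (SGM25), 4087 (SGM30) and 4237 (SGM24) in sGC. The groups overlapped, and the log2 change was -0.13 ± 0.05 (SE, limma, adjusted p = 0.319). RPL34 and RPS10 had log2 changes of -0.17 and -0.13 (limma, adjusted p = 0.417 and 0.42). The genes with the most negative values in F1 had smaller ones in F2, with -0.17 for RPS24, -0.09 for RPL22L1, -0.06 for RPS27A, -0.09 for RPS20, -0.04 for RPL7, -0.04 for RPL27 and -0.05 for RPS4X. RPS15A, RPL3L and RPS27L, a paralogue of RPS27 that p53 induces, were the 3 members above 0, with 0.02, 0.17 and 0.11.

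Markers of several cell types differed between the groups of F2. All 10 oligodendrocyte markers were lower in sGC at an unadjusted p under 0.05, with a median log2 change of -0.72. None passed after adjustment, and none was at 0 in all animals. Their sums were 138011 to 259665 in Veh and 81066 to 115496 in sGC. The PVN neuroendocrine markers were higher in sGC in 7 of 8, 4 of them at an unadjusted p under 0.05. Their sums were 61469 to 121637 in Veh and 87939 to 210672 in sGC. All 7 ependymal markers were higher in sGC, 4 of them at an unadjusted p under 0.05, with a median of 0.77 and sums of 5896 to 6966 in Veh and 6850 to 9365 in sGC. All 7 endothelial markers were lower, 3 of them at an unadjusted p under 0.05, with a median of -0.27 and sums of 7133 to 10745 and 6511 to 7622. All 8 neuronal markers were lower, with a median of -0.13, and so were all 6 microglial markers, with a median of -0.15. In these 2 lists 0 markers had an unadjusted p under 0.05. The part of these markers in the values of the ribosomal protein genes was not tested.

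In F3, most members were higher in sGC. Of 52 members 47 had a log2 change above 0, against 49.9% of the 11866 genes tested, with a median of 0.08, against -0.00 (-0.0002) over all genes. No member passed in limma in either direction, where 0.0337% of all genes were called lower and 0.00843% higher. At an unadjusted p under 0.05 there were 9 members (17.3%), all higher in sGC, against 13.2% of all genes. That count rested on single animals and on the batches: it was 31 without SGM1, 20 without SGM5, 15 without SGM10, 5 without SGM9 and 5 without SGM_21, 5 within the first batch and 3 with batch as a covariate. In 1 member, RPL22L1, the sGC animals all lay above the Veh animals, which was so for 0.598% of all genes.

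RPL22L1 in F3 had a lowest, median and highest scaled value of 1716, 1796 and 1860 in Veh and of 1866, 1926 and 2094 in sGC. The groups were thus parted by a gap smaller than the spread within either. Its log2 change was 0.12 ± 0.03 (SE, limma, adjusted p = 0.157). RPL38, a large-subunit protein known for its part in translating Hox mRNAs, had 2391, 2502 and 2726 in Veh and 2637, 2740 and 3078 in sGC, with a log2 change of 0.13 (limma, adjusted p = 0.209). RPL7 had 8645, 8971 and 10015 in Veh and 9633, 9936 and 11160 in sGC, with 0.14 (limma, adjusted p = 0.209). In both of these genes the groups overlapped. RPS20 and RPS14, another small-subunit protein, had log2 changes of 0.15 and 0.14 (limma, adjusted p = 0.247 and 0.309). RPL26L1, the paralogue of RPL26, and RPL5 had the values farthest below 0, -0.09 in each case (limma, adjusted p = 0.463 and 0.831).

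The level over all members in F3 was -0.10 at the lowest, -0.00065 at the median and 0.12 at the highest in Veh, and 0.02, 0.06 and 0.20 in sGC. All 6 sGC animals were above 4 of the 6 Veh animals, and SGM_21, the highest, was above all 6. SGM_21 was from the second batch, and so was SGM_22, the lowest of the sGC group. Within the first batch, with 6 Veh and 4 sGC animals, the median over the members was 0.06, with 46 of 52 higher, and with batch as a covariate it was also 0.06. The PVN markers overlapped between the groups, with sums of 21128 to 59731 in Veh and 28296 to 45085 in sGC. The sums of the oligodendrocyte markers also overlapped, with 54940 to 78262 and 57527 to 81336. Of 9 oligodendrocyte markers 8 were higher in sGC, with a median log2 change of 0.09 and 1 at an unadjusted p under 0.05. Of 7 microglial markers 6 were higher, with a median of 0.11 and 2 at that threshold. Of 8 neuronal markers 6 were lower, with a median of -0.05 and 4 at that threshold. None of these markers passed after adjustment, and their part in the ribosomal protein values was not tested.

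The lists around the ribosome had medians nearer to 0 in F2 and F3 than the cytosolic ribosomal proteins did, and no gene of them passed in limma in either generation. In F3 the other TOP mRNAs had a median of 0.04, with 11 of 12 higher, and the translocon genes one of 0.04, with 14 of 15 higher. The mitochondrial ribosomal proteins had medians of -0.02 in F2 and 0.02 in F3, smaller than those of the cytosolic ones in both. The respiratory chain had medians of -0.07 in F2 and 0.03 in F3. Ribosome biogenesis had a median of 0.03 in F2, where 41 of 60 genes were higher, among them GNL2 with 0.31 and HEATR1 with 0.26 (limma, adjusted p = 0.117 and 0.189), and of 0.0001 in F3.

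The fold changes of 2 generations were compared directly in a joint fit over the 11429 genes tested in all 3 tables, 51 members among them. Between F1 and F3 they differed in 30 members (58.8%) in limma with an adjusted p under 0.05, against 17.6% of all genes, each time lower in F1. Between F1 and F2 they differed in 1 member (1.96%), against 14.3% of all genes. Between F2 and F3 they differed in 0 members, against 0.157% of all genes, and 17 members (33.3%) had an unadjusted p under 0.05 there, against 14.7% of all genes. Calls in F1 and none in F2 were thus backed by a test of the difference itself in RPS4X alone.

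RPS4X was that member, with log2 changes of -0.24 in F1 and -0.05 in F2. The difference was -0.19 ± 0.06 (SE, limma, adjusted p = 0.0257). Between F1 and F3 the 6 differences of the largest size were in RPS24, at -0.48, RPL22L1, at -0.44, RPS20, at -0.42, RPL7, at -0.40, RPS27A, at -0.38, and RPS14, at -0.37. Their adjusted p-values in limma lay between 0.000222, in RPL22L1, and 0.0105, in RPS14. In all 6 the fold change was negative in F1 and positive in F3. The 3 generations do not share animals, so the values are separate. On the deposited scale 0 members differed between F1 and F3 and 0 between F1 and F2. Without SGM20 19 members differed between F1 and F3, and without SGM4, SGM8 and SGM20 together 9 did. Between F1 and F2 the count was 0 without SGM7, 7 without SGM22, and 2 to 4 without SGM8, SGM15, SGM16, SGM21 or SGM25.

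**Figure D5:**
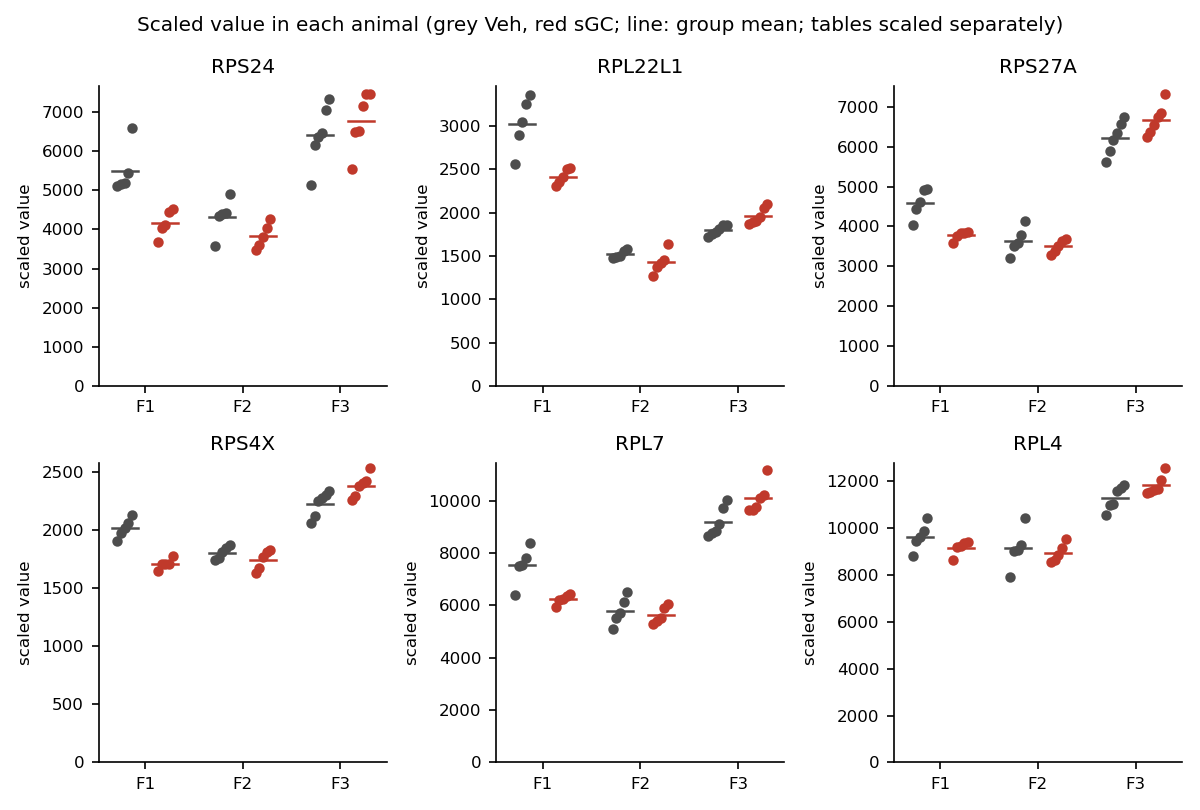
Scaled value of RPS24, RPL22L1, RPS27A, RPS4X, RPL7 and RPL4 (y axes, starting at 0) in each animal of F1, F2 and F3, grey for Veh and red for sGC, with lines at the group means. The tables were scaled separately, so levels are read within a generation. In F1 the sGC animals of RPS24, RPL22L1, RPS27A and RPS4X lie below every Veh animal, and in F2 the groups overlap in all 6 genes.

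Across the 3 generations, 44 of the 51 shared members were lower in sGC in F1 and F2 and higher in F3 (86.3%), which was so for 16.3% of the 11429 genes. Another 5 members were lower in all 3, and 2, RPS15A and RPL3L, were lower in F1 alone. The Pearson correlation of the members' log2 changes was 0.06 between F1 and F2, across 51 genes that are not independent of each other. It was -0.32 between F1 and F3 and 0.34 between F2 and F3. Over all 11429 genes the correlation was -0.11 between F1 and F2, -0.21 between F1 and F3 and -0.04 between F2 and F3. The direction of the median was the same under every scaling, filter and left-out animal tried, negative in F1 and F2 and positive in F3.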

How the data were processed

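PVN micropunch RNA of 32 female guinea pigs was sequenced on the Illumina platform. The authors aligned reads to cavPor3 with TopHat2, counted them on genes, removed outliers by Cook's distance and corrected the F3 batches with ComBat. They then removed unwanted variation by RUVSeq residuals and tested genes with a likelihood ratio test. Their deposited tables, 1 per generation, hold normalized counts rounded to whole numbers, treated as a score and not as reads, so no counting interval is given. Columns with their own fold changes, tests and p-values were not used.

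Values were divided by median-of-ratios size factors, because the deposited sums differed between animals. Genes with a mean of at least 10 were fitted per table, on log2(value + 1), with limma 3.58.1 under R 4.3.3 (lmFit and trended eBayes), adjusted by Benjamini-Hochberg over all genes, with a threshold of 0.05. A fold change on this scale understates that of low genes. Differences between generations were contrasts of 6 group means in a joint fit. The precision is set by the number of animals. No label ties animals to litters, though the paper gives its sample sizes as independent litters. The p-values measure the spread between animals that was left after the authors had removed directions of variation. The main fit did not count these directions as used. With them as covariates 12 members fell in F1, in place of 25. No 2 columns were identical. The step was tested on simulated data, with changes larger than that of any member and with genes that varied independently. That test does not show how well changes as small as those of the members are called.

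The members and gene lists were chosen with earlier results of these data known. By rule, 26 members are named: the largest or best supported changes, the highest and lowest levels, stalk proteins, a fixed list, paralogues with their parents, and the largest differences between generations; of other lists, genes by smallest p. No sequence or coordinate is given, since the gene list (mCavPor4.1) is of another build than the files. Alternatives were other scalings, filters, a pseudocount of 5, the removed directions as covariates, eBayes without trend, F3 batch, and each animal left out. An alternative without 3 F1 animals, and the joint fit with each animal left out, were chosen after seeing the data.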

Additional observations from a re-analysis of the deposited data

Results flagged for a closer look

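Of 156 sets of values from 1 group, for the level over all members or 1 named gene, 7 held an animal farther from the rest than Dixon's 95% limit allows, and chance gives about 7.8. In F1 Veh these were SGM7 for RPS24, at 12.69 on the log2 scale against 12.32 to 12.41 in the other animals, and SGM15 for RPS10, at 11.65 against 11.81 to 11.85. In F1 sGC these were SGM20 for RPL4, at 13.07 against 13.17 to 13.20, SGM20 for RPS14, at 11.45 against 11.75 to 11.85, and SGM16 for RPL38, at 10.75 against 10.66 to 10.69. In F3 sGC SGM_21 stood above the others in the level over all members, at 0.195 against 0.02 to 0.08, and in RPL38, at 11.59 against 11.37 to 11.43. SGM_21 is 1 of the 2 animals of the second batch, and the part of the batch in its values was not tested.

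The fold changes of F1 and F2 differed in RPS4X, by -0.19 on the log2 scale. Those of F1 and F3 differed by -0.48 in RPS24, -0.44 in RPL22L1, -0.42 in RPS20, -0.40 in RPL7, -0.38 in RPS27A and -0.37 in RPS14, the 6 of the largest size among 30 members (limma, joint fit).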

How the results depend on the processing

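The number of members that fell in F1, 25 as reported, was 0 on the deposited scale, 12 with the removed directions as covariates, 14 without the trend in eBayes, 3 without SGM4, SGM8 and SGM20, and 9 to 37 with 1 animal left out. The number that differed between F1 and F3, 30 as reported, was 0 on the deposited scale, 9 without those 3 animals and 19 to 37 with 1 animal left out. For F1 against F2, with 1 reported, it was 0 on the deposited scale, 0 with the covariates, 0 without the 3 animals and 0 to 7 with 1 left out. The cause was not tested. The other counts of members past the adjusted threshold stayed within 1.5 times, and the medians of the members within 1 SD between animals. Over all genes, the 0 calls of F2 became 42 under quantile normalization, the 2058 of F1 78 on the deposited scale, and the 5 of F3 0 in the first batch, 11 without the trend in eBayes and 1 to 17 with 1 animal left out. At an unadjusted p, the 1 member of F2 became 12 on the deposited scale and 0 to 8 with 1 animal left out, and the 9 of F3 became 3 with batch as a covariate and 5 to 31 with 1 left out. Of 729 values of named genes under other settings, 680 kept direction and side of the threshold, 40 no longer passed, 2 newly passed and 7 turned. These were RPL10L in F1 (-0.0232), RPL4 (0.0038) and RPL8 (0.0011) in F2 under quantile normalization, and in F3 RPL3 and RPL13A, at -0.0153 and -0.0206 in the first batch and -0.0149 and -0.0202 with batch as a covariate. With 1 animal left out the sign also turned in F2 for RPL7 (-0.0783 to 0.0076), RPL4 (-0.0775 to 0.022), RPL8 (-0.0726 to 0.0404) and RPL10L (-0.1477 to 0.0327), and in F3 for RPL3 (-0.0141 to 0.0412) and RPL10A (-0.0333 to 0.0172). No paired analysis was possible because the numbers in the labels name single animals. With 5 or 6 animals a group, small changes of single genes in F2 and F3 may stay under the threshold.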

Other observations

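Of the 12 members whose F1 groups did not overlap, 5 are not described above, and are named here after their values were seen. RPL14, a large-subunit protein, was 5344 to 6092 in Veh and 4588 to 5220 in sGC, RPL18 was 1937 to 2241 and 1695 to 1895, RPL29 was 2822 to 3010 and 2323 to 2804, and RPL36 was 1645 to 1870 and 1330 to 1639. RPS28, of the small subunit, separated the groups as well, with a log2 change of -0.20 that did not pass (limma, adjusted p = 0.0994). The spread between the F1 Veh animals was small in RPL29 and RPL27, with coefficients of variation of 2.41% and 3.49%, and larger in RPS24 and RPL22L1, with 11.4% and 10.3%. In F2 RPL37, of the large subunit, had the most negative log2 change of the members, at -0.21 (limma, adjusted p = 0.507), with 160 to 223 in Veh and 128 to 178 in sGC.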
